A study of Oncorhynchus gorbuscha with 76 samples.

Results

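Steroid hormones are made from cholesterol in a few specialised cells, and 3 genes of that pathway are described here in maturing pink salmon, Oncorhynchus gorbuscha. Fish of this species die after their only spawning. The genes are star, hsd3b1 and hsd20b2, 3 of the 40756 genes measured. They were listed by name, with no threshold on a measured value, but with earlier results of these data known. Messenger RNA was sequenced from 3 tissues (gonads, head kidney and muscle) of females and males labelled by migratory stage as ocean, river or spawning. The 76 libraries form 18 groups and, by their fish numbers, come from 28 fish. Ovary gave 4 ocean, 4 river and 5 spawning libraries, and testis gave 5 of each. Head kidney gave 4 libraries of each stage and sex. Female muscle gave 4 of each stage, and male muscle gave 4 ocean, 5 river and 3 spawning libraries. The labels used here name the stage, sex, tissue and fish number, and no strain, age or agent. A fish is named by stage, sex and number, and numbers recur between stages for different fish, so every stage comparison is between different fish.

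The product of star, the steroidogenic acute regulatory protein, carries cholesterol to the inner mitochondrial membrane, the step that limits how fast steroids are made. The 3-beta-hydroxysteroid dehydrogenase made from hsd3b1 then converts pregnenolone to progesterone and related precursors to androgens. The enzyme made from hsd20b2 is a 20-beta-hydroxysteroid dehydrogenase that in zebrafish reduces cortisone, an inactivation product of cortisol. In fish, steroids are made in the theca and granulosa cells of the ovary and the Leydig cells of the testis. Cortisol is made in interrenal cells, which lie scattered in the head kidney among blood-forming tissue.

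Gonad libraries held 12719694 to 17696550 counts, head kidney libraries 13651505 to 18724203, and muscle libraries 15784611 to 29286325. Levels are given as CPM, the count scaled to the size of its library, after TMM scaling within a tissue and sex. Changes are log2 fold changes ± standard error, with edgeR's quasi-likelihood test, called at an adjusted p under 0.05 over all genes tested. The standard error is not given by edgeR. It was derived as the absolute change divided by the square root of the test's F statistic. The deposited values are estimated counts, which are not whole where a read is divided among several sequences. Of the hsd3b1 values 90.8% were not whole, against 43.4% for star and 14.5% for hsd20b2. Against the mean of the other libraries of each stage, 2 of 28 gonad, 6 of 24 head kidney and 3 of 24 muscle libraries correlated best with a stage other than their own. The muscle library labelled river male 6 correlated at 0.961 with spawning, 0.750 with river and 0.723 with ocean muscle. Markers of the labelled tissues were present: 4 skeletal muscle genes summed to 331 CPM or more in every muscle library. In ovary the oocyte growth factor gene gdf9 had no count at the ocean and river stages, where amh, made by follicle cells, was at 16.3 to 104 CPM.

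All called rises of star and hsd3b1 were in the gonads, and in both sexes the larger ones lay between the river and the spawning stage. In ovary, star was at 14.8, 52.7, 51.2 and 29.4 CPM in the 4 ocean fish and at 81.4, 78.7, 97.9 and 85.2 CPM in the 4 river fish. The 5 spawning ovaries held 481, 1338, 1091, 1073 and 938 CPM. Every spawning ovary was above every river ovary, and every river ovary was above every ocean ovary. Here and below, the share of all genes whose stages separate in this way was not counted. From ocean to spawning star rose by 4.68 ± 0.41 (edgeR adjusted p = 6.55e-06), and from river to spawning by 3.45 ± 0.38 (edgeR adjusted p = 2.80e-05). Between ocean and river the log2 fold change was 1.23 ± 0.36 and was not called (edgeR adjusted p = 0.438). With edgeR none of 28339 genes was called in ovary between these stages (0%), although 2338 had an unadjusted p under 0.05 and DESeq2 called 88 higher and 61 lower. These comparisons share fish, since each stage enters 2 of them.

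Ovarian hsd3b1 followed the same order of stages. Ocean ovaries held 17.9, 22.5, 54.4 and 29.8 CPM, and river ovaries held 36.6, 71.0, 94.5 and 45.0 CPM, so these groups overlapped. Spawning ovaries held 826, 1572, 1223, 1524 and 1712 CPM, all above the highest earlier value. The rise was 5.40 ± 0.45 from the ocean (edgeR adjusted p = 4.67e-06) and 4.39 ± 0.42 from the river (edgeR adjusted p = 1.20e-05). In that ocean to spawning comparison 16.3% of the 28339 genes tested were called higher and 20% lower, and from river to spawning 16.8% and 21%. By size of rise hsd3b1 ranked 111, hsd20b2 185 and star 188 among all genes tested in ovary.

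The level of hsd20b2 in ovary was low and also highest at spawning. Ocean ovaries held 0.27, 0.07, 0.06 and 0 CPM, and river ovaries held 0, 0.08, 0.34 and 0.28 CPM. The 5 spawning ovaries held 1.08, 2.06, 6.63, 3.58 and 0.95 CPM, from 15 to 94 counts, and none overlapped the earlier stages. The rise was 4.71 ± 1.02 from the ocean (edgeR adjusted p = 0.00321) and 3.94 ± 0.96 from the river (edgeR adjusted p = 0.00628). The 5 spawning fish differed by more in this gene than in star: the highest was spawning female 3, in which the germ cell markers summed to 47.1 CPM against 0.824 to 7.80 CPM in the other 4. The part of that library's makeup in its level was not tested.

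**Figure D1:**
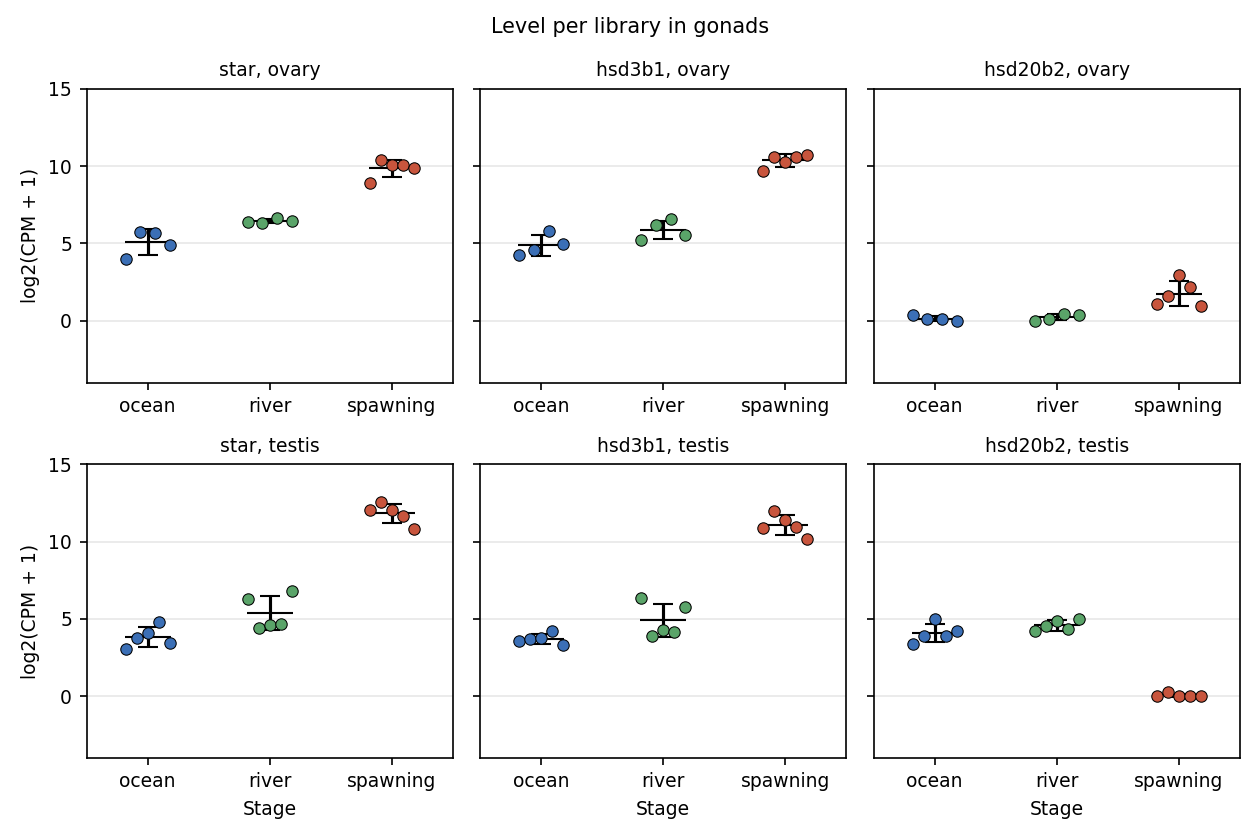
Level of star, hsd3b1 and hsd20b2 in each gonad library as log2(CPM + 1), by stage, with ovary above and testis below. Points are libraries, the horizontal bar is the mean and the error bar is 1 SD. star and hsd3b1 are highest at spawning in both sexes, while hsd20b2 is highest at spawning in ovary and at or near 0 in spawning testis.

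In testis, star and hsd3b1 rose further than in ovary, and hsd20b2 fell to almost nothing. Testis star was at 7.27, 12.8, 15.8, 26.2 and 10.0 CPM in ocean males 1, 3, 6, 8 and 9. River males 2, 3, 4, 5 and 6 held 77.5, 20.5, 23.7, 24.9 and 109 CPM. Spawning males 6, 7, 8, 9 and 10 held 4198, 6073, 4158, 3204 and 1836 CPM. All spawning libraries stood above all others, and 2 river fish, males 2 and 6, stood above the other 3. In spawning male 7, star alone took 0.664% of all counts of the library. From ocean to spawning the rise was 8.24 ± 0.68 (edgeR adjusted p = 1.84e-08), and from river to spawning 6.20 ± 0.62 (edgeR adjusted p = 1.97e-07).

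Testis hsd3b1 was at 10.8, 11.7, 12.4, 17.6 and 9.01 CPM in the ocean and at 79.5, 14.1, 18.5, 16.8 and 54.3 CPM in the river. At spawning it was at 1874, 4073, 2691, 1952 and 1167 CPM in males 6 to 10. River males 2 and 6 were again the highest of their stage, and ocean and river libraries overlapped. The rise from the ocean was 7.74 ± 0.61 (edgeR adjusted p = 1.11e-08), and from the river it was 5.96 ± 0.57 (edgeR adjusted p = 1.01e-07). In the comparison of spawning with ocean testis 40.7% of the 28149 genes tested were called higher and 43.2% lower, and from river to spawning 38.8% and 41.8%. By size of rise star ranked 135 and hsd3b1 ranked 216 of those genes.

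In testis star and hsd3b1 were already called higher in the river than in the ocean, and the difference from the change in ovary was not called for either gene (edgeR adjusted p = 0.434 and 0.430). The rise was 2.04 ± 0.52 for star (edgeR adjusted p = 0.00786) and 1.78 ± 0.48 for hsd3b1 (edgeR adjusted p = 0.00971), where 25.8% of all genes were called higher. In star only river males 2 and 6 stood above every ocean testis, and the other 3 lay within the ocean range. A fit without both males was not run. River males 2 and 6 also held the most insl3 of their stage, a hormone of Leydig cells, with 86.8 and 144 CPM against 23.3 to 29.4 CPM in the other 3. The luteinizing hormone receptor gene lhcgr was at 23.4 and 31.1 CPM in them and at 4.63 to 12.1 CPM in the others. The median of all genes in that comparison was 0.25 with TMM scaling and -0.01 with library size only, so relative to it both rises are smaller by that amount under TMM.

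The gene hsd20b2 went the other way in testis. Ocean testes held 9.53, 13.5, 30.6, 14.0 and 17.9 CPM, and river testes held 17.3, 21.8, 28.4, 19.3 and 30.9 CPM. At spawning 4 of 5 libraries had no count, and spawning male 7 had 3 counts (0.177 CPM). The ocean libraries held 1243 counts in all and the river libraries 1560. The pooled level was 474 times higher in ocean than in spawning testis (exact binomial 95% interval 162 to 2300, counting error only) and 633 times higher in river than in spawning testis (216 to 3072). The edgeR test called both falls (adjusted p = 5.39e-09 and 2.57e-09), and its fitted values of -8.44 and -9.09 depend on its prior count. Between ocean and river the log2 fold change was 0.65 ± 0.37 and was not called (edgeR adjusted p = 0.163; 0.0450 without ocean male 6).

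The cellular makeup of the testis differed with stage in the same libraries. The 10 germ cell markers found in the tables summed to 5361 to 12164 CPM in ocean testis, 7140 to 14894 CPM in river testis and 0.235 to 1.71 CPM in spawning testis. The synaptonemal complex gene sycp1, of meiotic cells, had a mean of 7424 CPM in the ocean and 0.0744 CPM at spawning. The Sertoli cell markers amh and dmrt1 together went from 50.7 to 64.8 CPM in the ocean to 294 to 665 CPM at spawning. The mean of insl3 was 8.43 CPM in ocean and 19524 CPM in spawning testis. In ovary the germ cell markers stayed between 0.824 and 47.1 CPM, and 3 granulosa cell markers went from 24.6 to 77.6 CPM in the ocean to 222 to 793 CPM at spawning. In bulk tissue more cells of a type and more RNA per cell cannot be told apart, and the part of these shifts in the changes of the 3 genes was not tested.

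The difference between ovary and testis was tested in 1 fit of all 28 gonad libraries. The ocean to spawning change of star was smaller in ovary by 3.59 ± 0.67 on the log2 scale (ovary minus testis -3.59, edgeR adjusted p = 3.87e-05). For hsd3b1 the difference was -2.37 ± 0.63 (edgeR adjusted p = 0.00174), and for hsd20b2, which moved in opposite directions, it was 13.13 ± 1.15 (edgeR adjusted p = 5.01e-10). From river to spawning the differences were -2.80 ± 0.66 for star, -1.60 ± 0.62 for hsd3b1 (edgeR adjusted p = 0.0262) and 13.00 ± 1.12 for hsd20b2. The hsd3b1 value lost its call without river female 8 (-1.33, edgeR adjusted p = 0.0748) or spawning male 7 (-1.32, edgeR adjusted p = 0.0646). Both hsd20b2 differences rest on 3 counts over the spawning testes, 6 over the ocean ovaries and 10 over the river ovaries. Their size therefore depends on edgeR's prior count. With 1 library left out at a time they ran from 12.55 to 15.67 from the ocean and from 12.42 to 15.53 from the river. In these 2 contrasts 69.6% and 66.4% of 31687 genes were called different between the gonads. None of the 3 genes was called different in the ocean to river change, where 16% of all genes were (edgeR adjusted p = 0.434 for star, 0.430 for hsd3b1 and 0.940 for hsd20b2).

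Within a library, the ratio of star to hsd3b1 counts does not depend on how libraries are scaled, and it was compared between libraries only, since gene lengths were not used. In spawning testis the ratio was 1.49 to 2.24, and in ocean testis it was 0.674 to 1.49. The mean log2 ratio was 0.747 ± 0.238 (SD, n = 5) at spawning and 0.126 ± 0.427 (SD, n = 5) in the ocean, a difference of 0.62 (exact 2-sided permutation test, p = 0.00794, the smallest this design allows, adjusted p = 0.0476 over 18 tests). In ovary the ratio moved the other way, from 0.826 to 2.35 in the ocean and 1.04 to 2.22 in the river to 0.548 to 0.892 at spawning. The ovarian differences of -0.72 from the ocean and -1.08 from the river did not pass after adjustment (exact permutation, adjusted p = 0.171 and 0.0714).

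**Figure D2:**
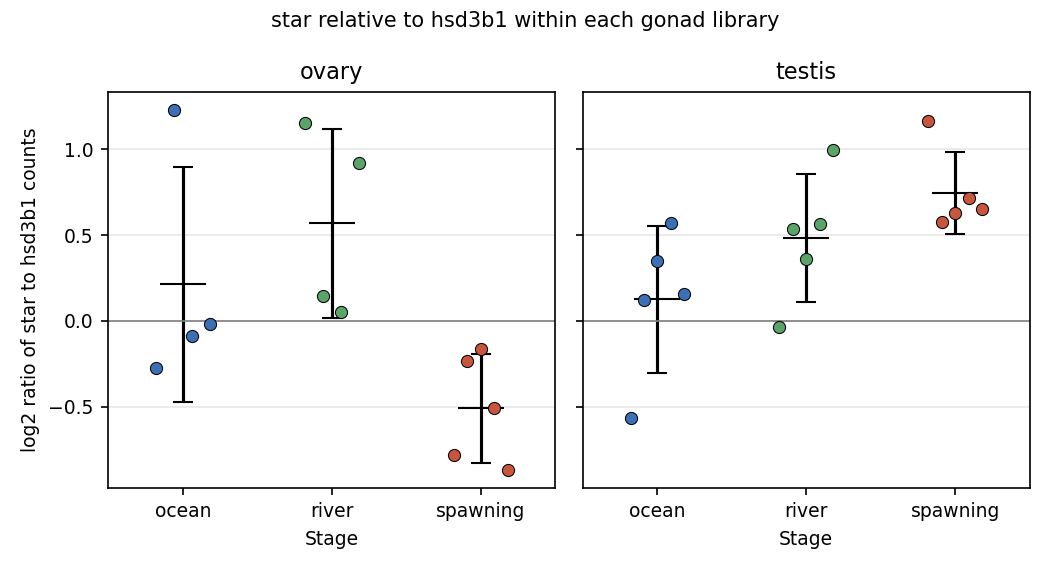
Log2 ratio of star to hsd3b1 counts in each gonad library by stage, with ovary on the left and testis on the right. Points are libraries, the horizontal bar is the mean and the error bar is 1 SD. The 5 spawning ovaries lie below 0 and the 5 spawning testes lie above 0.5.

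Other genes of the pathway in the gonads were counted over lists matched by symbol. Of 34 steroid synthesis enzymes listed, 13 had a row by symbol, and cyp11a1, cyp17a1, cyp19a1a and cyp11c1 were not among them. Of the 9 tested beside hsd3b1 and hsd20b2, 2 rose and 3 fell in ovary from ocean to spawning, with a median of -0.38 against -0.02 over all genes, of which 16.3% rose and 20% fell. In testis 4 of 9 rose and 3 fell, near the 40.7% and 43.2% of all genes, which had a median of -0.12. In both gonads hsd3b7, of bile acid synthesis, rose (1.47 ± 0.24 in ovary, 0.70 ± 0.28 in testis), as did hsd17b4, of peroxisomal fat oxidation (0.67 ± 0.15 and 0.49 ± 0.12). The dehydrogenase genes hsd17b8 (-1.07 ± 0.21 and -1.58 ± 0.32) and hsd17b10 (-0.74 ± 0.16 and -1.81 ± 0.16) and the carbonyl reductase cbr1 (-0.57 ± 0.17 and -0.86 ± 0.15) fell in both. In testis hsd17b7 (4.85 ± 0.41) and the 5-alpha-reductase srd5a1 (1.90 ± 0.32) rose as well. None of these 7 genes moved as far as hsd3b1 in the same gonad.

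Electron carriers and trophic receptors of steroid synthesis were also among the genes called higher from ocean to spawning. Of 3 electron carriers tested, 3 rose in ovary and 3 in testis, where 16.3% and 40.7% of all genes rose. The ferredoxin gene fdx1b, whose zebrafish product passes electrons to steroid-making cytochromes, rose by 1.90 ± 0.34 in ovary and by 7.34 ± 0.55 in testis. The ferredoxin reductase fdxr rose by 1.72 ± 0.18 and 2.16 ± 0.36. Of 6 regulators and receptors tested in ovary 5 rose, and of 5 in testis 4 rose, beside the same shares of all genes. Steroidogenic factor 1, nr5a1b, rose by 2.67 ± 0.45 and 5.70 ± 0.43, and the follicle-stimulating hormone receptor fshr rose by 3.96 ± 0.33 and 5.07 ± 0.35. The receptor lhcgr rose by 2.01 ± 0.32 in ovary and 6.94 ± 0.54 in testis. The names mc2r, the receptor for adrenocorticotropin, and nr5a1a were not matched by symbol.

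Genes that supply cholesterol were counted in the same way. Of the 10 cholesterol delivery genes tested beside star, 6 rose and 1 fell in ovary, where 16.3% of all genes rose and 20% fell. Of 9 in testis 7 rose and 2 fell, where 40.7% of all genes rose and 43.2% fell. The gene soat2, of cholesterol ester formation, had no count in ocean and river ovaries or in ocean testes. It was at least 184-fold higher in spawning than in ocean ovary (683 counts) and at least 97.7-fold higher in spawning than in ocean testis (335 counts), against a floor of 3 counts over the ocean group. In testis 9 of 12 cholesterol synthesis genes rose and 1 fell, with a list median of 4.50, and in ovary 1 rose and 4 fell, with a median of -0.40. The squalene synthase fdft1 changed by 5.65 ± 0.45 in testis and -1.17 ± 0.22 in ovary, and lanosterol synthase lss by 4.72 ± 0.46 and -2.73 ± 0.35. The carrier stard4, related to star, changed by 6.16 ± 0.54 in testis and -2.08 ± 0.44 in ovary. It was at only 0 to 0.284 CPM in ocean testes and 0.187 to 0.530 CPM in spawning ovaries, so both fitted values rest on few counts. No test of the difference between the gonads is given here for these genes.

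**Figure D3:**
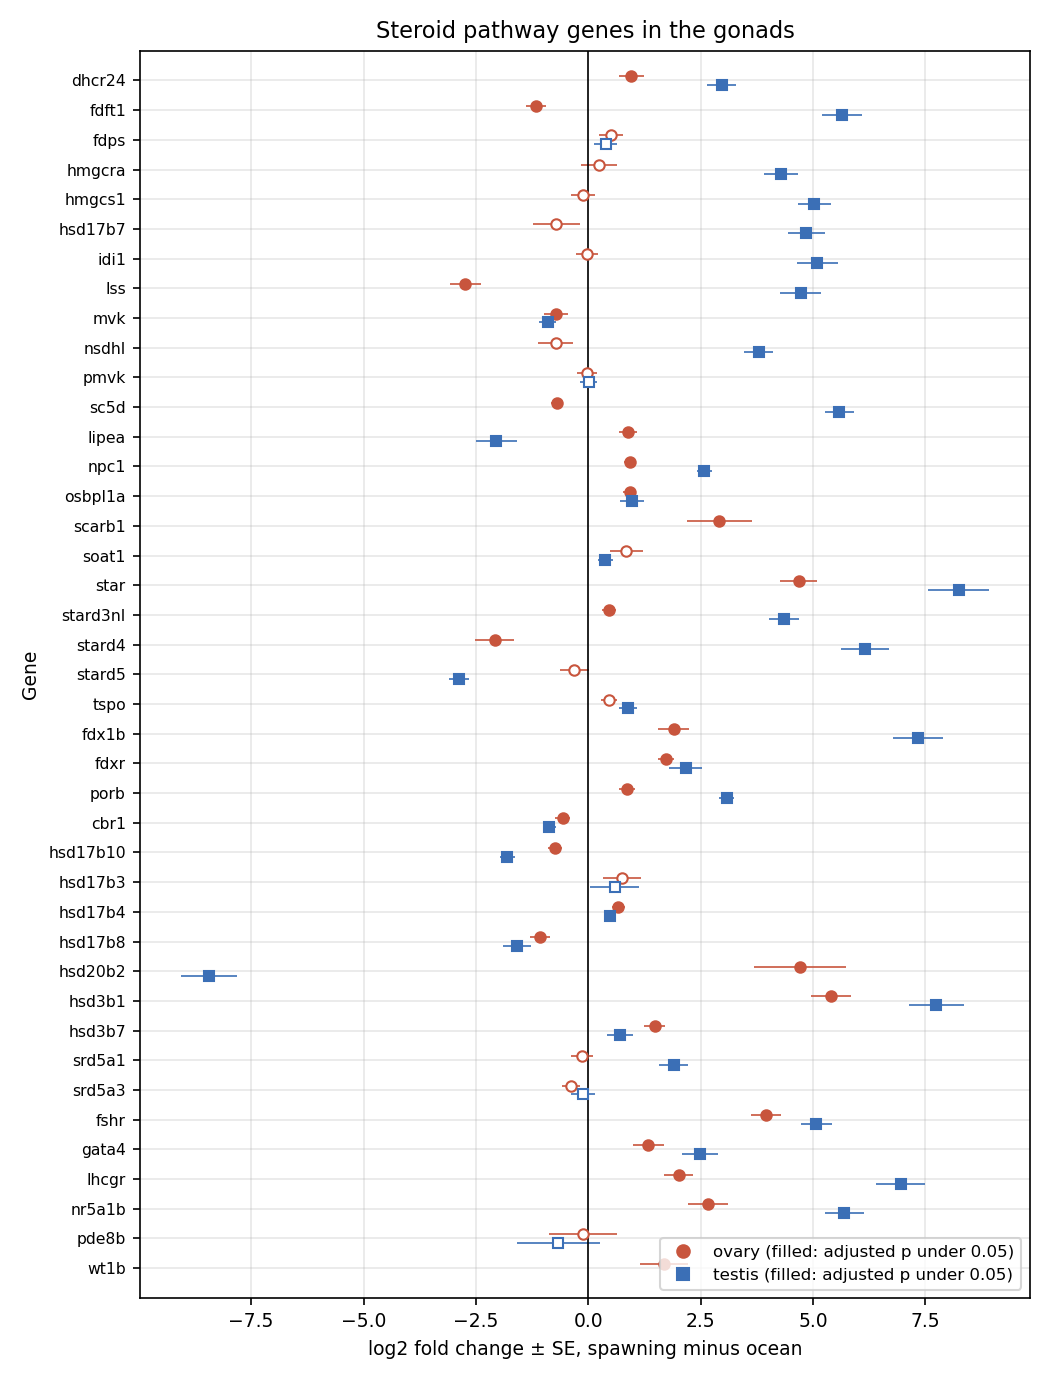
Log2 fold change from ocean to spawning ± SE for genes of the steroid pathway lists in ovary (circles) and testis (squares), filled where the adjusted p was under 0.05. star, hsd3b1, fdx1b, nr5a1b, fshr and lhcgr rose in both gonads. hsd20b2 lies on opposite sides, with a fitted testis value that rests on 3 spawning counts, and soat2 is left out because its ocean groups had no count.

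In head kidney no stage change of the 3 genes was called with edgeR, and libraries of 1 group differed by up to 3713 CPM. In females star had 5, 2, 0 and 4 counts in ocean fish 2, 4, 5 and 7, at most 0.283 CPM. River females 1, 7, 8 and 9 held 0.141, 53.9, 3295 and 292 CPM. Spawning females 1, 2, 4 and 5 held 0.202, 0.378, 3713 and 662 CPM. All ocean females were low, whereas 3 of 4 river and 2 of 4 spawning females were high, and the other 3 held at most 0.378 CPM. The fitted change was 12.57 ± 3.68 from ocean to spawning and 12.31 ± 3.66 from ocean to river (edgeR adjusted p = 0.0601 and 0.167). DESeq2 called both (12.68 and 12.40, adjusted p = 8.15e-07 and 1.03e-05), but it also called many more genes than edgeR. Of 27374 genes it called 2691 higher and 1648 lower from ocean to spawning, and 895 and 641 from ocean to river. In this tissue edgeR called 7.92% of 27374 genes from ocean to spawning, 0.117% from ocean to river and 8.46% from river to spawning.

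In males the high libraries were spread over all stages. Ocean males 1, 6, 8 and 9 held 0.0952, 0.330, 0.429 and 2012 CPM of star. River males 2, 3, 5 and 6 held 0.124, 1.24, 184 and 0 CPM, and spawning males 6, 7, 9 and 10 held 7.17, 5.57, 0.809 and 901 CPM. Each stage thus had 1 library far above the other 3, and the groups overlapped. The change from ocean to spawning was -1.16 ± 2.87 (edgeR adjusted p = 0.850, with 6.76% of 26897 genes called, against 0% from ocean to river and 9.22% from river to spawning), and without ocean male 9 it was 9.67 (edgeR adjusted p = 0.181). The female minus male difference in stage change was called for none of the 3 genes, and for 0 of 28707 genes (0%) in edgeR. An unadjusted p under 0.05 was found for 1314 genes from ocean to spawning and 1456 from ocean to river. These are about as many as would be found with no difference in any gene. DESeq2 called 68 genes higher and 28 lower in the first of these and 38 and 11 in the second. It called the difference for star at 13.86 from ocean to spawning (adjusted p = 0.0322) and 15.82 from ocean to river (adjusted p = 0.00872). In edgeR, with 1 library left out at a time, these differences ran from 2.96 to 19.45 and from 4.93 to 22.42 and were never called.

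This spread was among the widest of genes of like level. The SD of star within stages was 4.45 log2 units in female head kidney, where the median over 4947 genes of like level was 0.335 and 0 of them reached it. In male head kidney it was 4.34, and 6 of 4580 genes of like level were as variable. For hsd3b1 the values were 4.06 and 4.08, with 1 of 4876 and 9 of 4588 genes as variable. In the gonads the SD of star was 0.583 in ovary and 0.818 in testis. Leaving out a single head kidney library moved the female ocean to spawning change of star only between 10.26 and 12.99, and it passed the threshold without river female 1 (edgeR adjusted p = 0.0401) or spawning female 2 (0.0448).

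**Figure D4:**
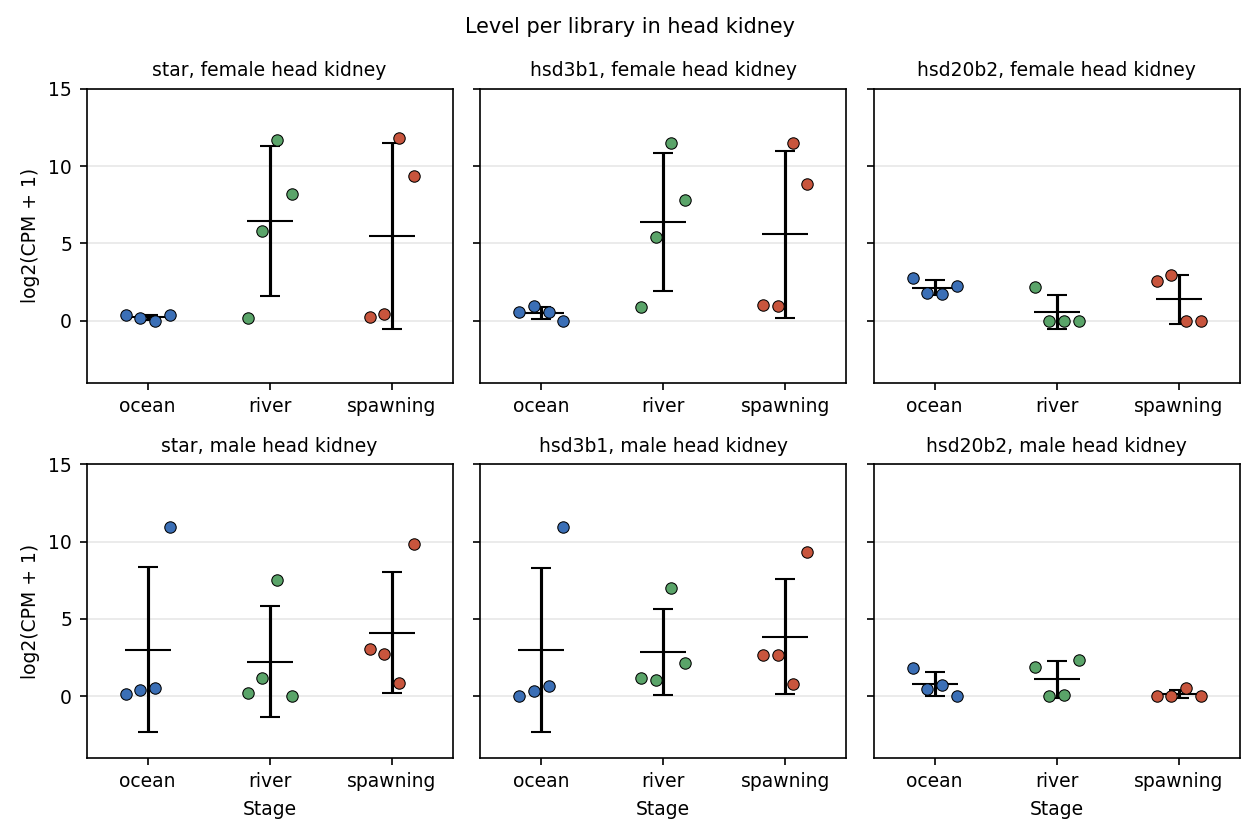
Level of star, hsd3b1 and hsd20b2 in each head kidney library as log2(CPM + 1), by stage, with females above and males below. Points are libraries, the horizontal bar is the mean and the error bar is 1 SD, which reaches below 0 where libraries of a group differ widely. High libraries of star and hsd3b1 occur in river and spawning females and once in each male group.

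The gene hsd3b1 was high in the same head kidney libraries as star. Its largest values were 2923 CPM in spawning female 4, 2891 CPM in river female 8 and 1937 CPM in ocean male 9, the same 3 libraries that led for star. In the 9 head kidney libraries with at least 100 counts of either gene the ratio of star to hsd3b1 counts lay between 1.04 and 1.45, with a median of 1.32. Over all 24 head kidney libraries the log2 levels of star and hsd3b1 had a Pearson r of 0.992 and a Spearman rho of 0.797. The points share depth and the split into high and low libraries, so these values are a description. The gene most like both apart from each other and genes without a symbol was fdx1b (r = 0.995 with star, 0.993 with hsd3b1), followed by nr5a1b (0.934 and 0.938) and spock3 (0.903 and 0.917). The level of fdx1b was 1844 CPM in spawning female 4, 952 in river female 8 and 900 in ocean male 9.

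The gene hsd20b2 was found mostly in libraries with little star, and in females the 2 kinds of library were separate. In females it was at 2.31 to 5.77 CPM in the 4 ocean fish and at 3.60 CPM in river female 1. It had no count in the other 3 river females. Spawning females 1 and 2 held 4.84 and 6.74 CPM, and spawning females 4 and 5 had no count. Each female library without hsd20b2 was one with star at 53.9 CPM or more. In males the split was less clear. Ocean male 1 and river males 2 and 6 held 2.57, 2.67 and 4.13 CPM of hsd20b2 and at most 0.124 CPM of star. Ocean male 9, river male 5 and spawning male 10 were high in star, with at most 1 count of hsd20b2. River male 3 and spawning males 6 and 7 had no hsd20b2 count, with star at 1.24, 7.17 and 5.57 CPM. Ocean males 6 and 8 and spawning male 9 were low in both genes (hsd20b2 at 0.395, 0.644 and 0.404 CPM). Changes of hsd20b2 in females were not called (-0.32 ± 1.68 from ocean to spawning, edgeR adjusted p = 0.936), and in males it did not pass the filter on low counts.

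The head kidney libraries also differed in kidney tubule genes. The 11 renal tubule markers in the tables, among them the salt transporters slc12a1 and slc12a3 and the endocytic receptor cubn, summed to 4.00 to 31.3 CPM in 12 libraries and to 158 to 1647 CPM in the other 12. In the 12 libraries with tubule markers under 100 CPM, star was at 0.330 to 3713 CPM, 10 of 12 had at least 50 star counts and 10 of 12 had no hsd20b2 count. In the 12 with more, star had at most 12 counts, hsd3b1 at most 50, and hsd20b2 had 6 to 107 counts in every library. In all, hsd20b2 had 7 counts in the first kind and 635 in the second. By stage, the low-tubule libraries were 0 of 4 ocean, 3 of 4 river and 2 of 4 spawning females, and 2, 2 and 3 of 4 males. The boundary of 100 CPM was set after the values were seen, so the split is a description with no test. The sum of these markers is not particular to kidney. It was 96.1 to 505 CPM in ovary, 418 to 690 CPM in spawning testis and 21.5 to 106 CPM in ocean and river testis.

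Stage and tubule content were thus unevenly combined in females. Within the low-tubule libraries the star change in males from ocean to spawning was -1.74 ± 2.85 and was not called (edgeR adjusted p = 0.769), and the female changes from the ocean could not be fitted, as no ocean female was of that kind. The part of tissue makeup in the female head kidney values was not tested. Chromaffin cell markers, of the cells that lie beside interrenal cells, summed to 0.905 to 27.7 CPM over the 24 libraries. Lymphocyte markers summed to 58.8 to 91.1 CPM in ocean, 85.5 to 119 CPM in river and at most 32.1 CPM in spawning females, and to 74.6 to 110 CPM, 65.5 to 176 CPM and 18.4 to 43.4 CPM in males. From ocean to spawning 5 of 6 of these markers fell in females and 4 of 6 in males (edgeR, median -2.39 in both). Of all genes tested, 861 of 27374 were called lower in females and 698 of 26897 in males, with medians of -0.06 and -0.10. Germ cell markers were at 165 CPM in ocean male 6 and at 2.02 to 43.0 CPM in the rest. The genes most like hsd20b2 over the 24 head kidney libraries were irx2a (r = 0.980), lg08h10orf90 (0.975) and c5 (0.971), and 73 genes had an r over 0.95.

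**Figure D5:**
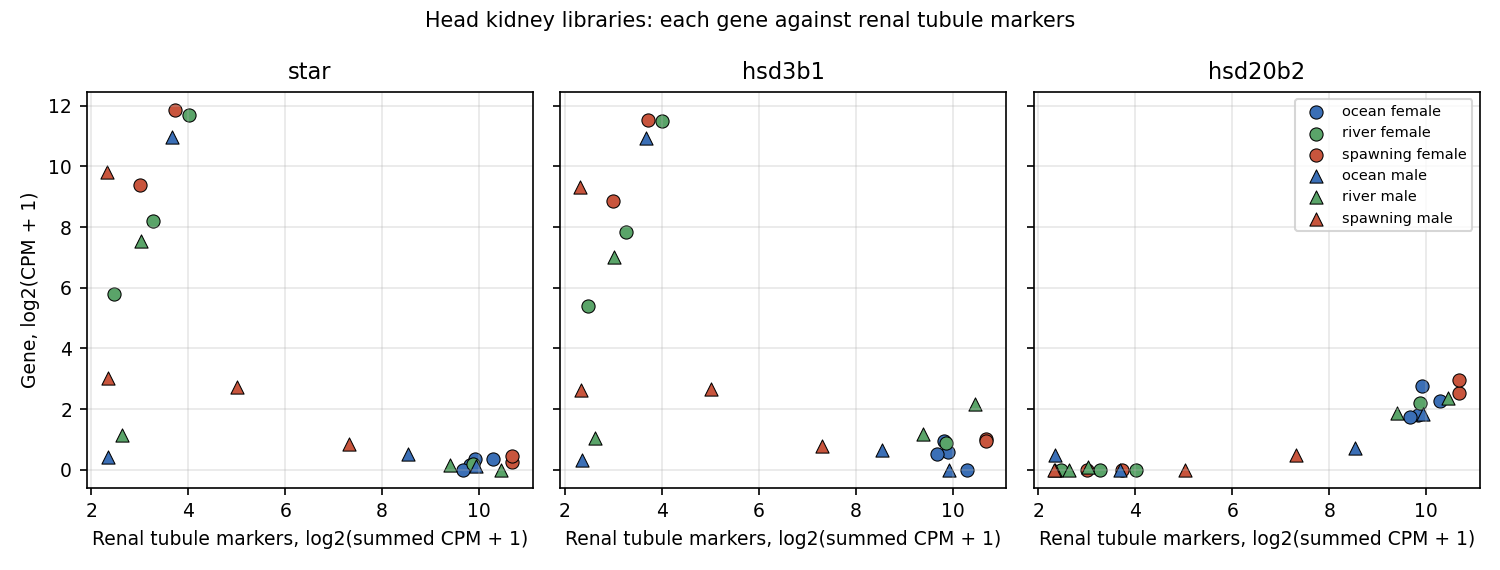
Each gene, as log2(CPM + 1), against the summed CPM of 11 renal tubule markers on the same scale, for 24 head kidney libraries, with circles for females and triangles for males and colour for stage. star and hsd3b1 are high only at the left, where tubule markers are low, and hsd20b2 lies above 1 log2 unit only at the right.

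Other genes of steroid synthesis were counted in head kidney too. Of the 9 enzymes tested beside the members, 0 were called in females from ocean to spawning, where 7.92% of all genes were. In males 0 rose and 1 fell, srd5a1 (-0.87 ± 0.20, edgeR adjusted p = 0.0243), where 6.76% of all genes were called. DESeq2 called 2 of the 11 enzymes of the list tested in females, hsd3b1 and hsd3b7. Of all 27374 genes it called 2691 higher and 1648 lower in that comparison. None of 3 electron carriers was called in either sex, and fdx1b, as given above, varied with star. The gene fkbp5, which cortisol is known to induce, was at 222 to 267 CPM in all 4 spawning females, both those with 0.202 CPM and those with 3713 CPM of star. It rose in females by 2.42 ± 0.26 (edgeR adjusted p = 8.93e-04), and klf9, another gene that responds to cortisol, rose in both sexes (1.89 ± 0.28 and 3.20 ± 0.62). In males fkbp5 was not called from ocean to spawning. It was at 11.8 to 57.0 CPM in ocean and 240 to 436 CPM in spawning males, and river male 6 held 473 CPM. The lymphocyte markers that were lower at spawning move with these stage changes, and their part was not tested.

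Muscle held traces of the 3 genes. Over 24 muscle libraries star had 0 to 30 counts except in spawning female 4, with 140 counts (6.05 CPM), and hsd3b1 had 0 to 30 counts except in the same library, with 119. The ratio of the 2 genes there was 1.18, and the head kidney library of that fish had the highest star level of all head kidney libraries. No stage change of these genes was called in muscle, where 50.5% of genes in females and 40.2% in males were called from ocean to spawning. From river to spawning 48.3% and 23.3% were called, and from ocean to river 0.0415% and 0.145%. In females star changed by 3.18 ± 1.33 from ocean to spawning (edgeR adjusted p = 0.0607; called at 4.09 with library size only and at 3.19 with DESeq2), and without spawning female 4 by -0.76 (edgeR adjusted p = 0.508). Without that library the change from river to spawning was -3.22 (edgeR adjusted p = 0.00602). In males hsd3b1 did not pass the filter on low counts. With 1 library left out at a time, star passed it in 10 fits. Among the fits in which star failed was that without the library labelled river male 6. In muscle hsd20b2 had at most 2 counts in any library.

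On a scale set over all 76 libraries, the highest group mean of star was in spawning testis, 2947 ± 1139 CPM (SD, n = 5). Spawning female head kidney (806 ± 1306), spawning ovary (680 ± 219), river female head kidney (628 ± 1088), ocean male head kidney (365 ± 730) and spawning male head kidney (183 ± 359) followed. Below them were river ovary at 60.9 ± 6.53, river testis at 40.2 ± 31.3, river male head kidney at 37.1 ± 73.5, ocean ovary at 26.1 ± 12.7 and ocean testis at 11.2 ± 5.72 CPM. Muscle groups lay between 0.310 and 2.80 CPM, and ocean female head kidney was lowest at 0.115 ± 0.0909 CPM. Every neighbour in this order overlapped in range. For hsd3b1 the order also began with spawning testis (1778 ± 809) and spawning ovary (948 ± 243). For hsd20b2 it began with river testis (18.5 ± 4.55) and ocean testis (13.3 ± 6.48), and ocean testis did not overlap the next group, ocean female head kidney (2.45 ± 1.13).

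The genes that followed hsd20b2 most closely differed between the gonads. Over 13 ovary libraries the closest with a symbol were uck2b (r = 0.953), acoxl (0.946) and atad1b (0.946). Over 15 testis libraries they were poc1a (0.996), sar1ab (0.994) and rnf32 (0.994), with 2996 genes over 0.95. All of these values describe libraries of 3 stages together, which share the large stage differences of each gonad.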

How the data were processed

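Messenger RNA was enriched by poly(A) from tissue kept in RNALater and extracted with Trizol, per the labels' protocols. The tools named in the submitters' processing notes, without role or order, are R 4.3.3, Salmon 1.8.0 and Trim Galore 0.6.4. The genome build, annotation and step from transcripts to genes are not given in the sources used here, so no positions or sequences are printed. The authors deposited expected counts per gene (estimated read counts, not scaled to a common total), 1 column per library, for 40756 genes, 32639 of them named by a LOC number. Since 36.4% of all deposited values had a fractional part, they were rounded to whole numbers before testing. Copies of the 3 genes under LOC numbers were not analysed here.

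Separate edgeR 4.0.16 models were fitted for every tissue and sex (R 4.3.3, filterByExpr by stage, TMM scaling, quasi-likelihood test, 3 stages sharing 1 spread, 2-sided, Benjamini-Hochberg over all genes tested, called under 0.05). Joint fits of both sexes tested the difference in stage change in head kidney and gonads. Levels are CPM, with a pseudocount of 1 CPM where log2 is taken. Ratios of 2 genes used a pseudocount of 0.5 counts and exact permutation tests, adjusted over 18 tests. The fits were also run on simulated data in which all genes shared the same spread. Genes as variable as star in head kidney were not simulated, so that run says nothing about their fits. The Wald test of DESeq2 1.42.0, scaling by RLE or by library size only, testing without a filter, fits of 2 stages only, fish number as a replicate block, a pseudocount of 5 and leaving out each library in turn were tried as alternatives. Head kidney libraries with tubule markers under 100 CPM, and genes like hsd20b2 in head kidney, were added after seeing the data.

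The members and gene lists were chosen with earlier results of these data known. Named by rule were the 3 genes, called enzymes of the synthesis list, up to 20 by size of change with a mean log2 CPM of at least 1, the 5 genes most like a member by Pearson r, and the key receptors and nr5a1b. Other pathway and marker genes were picked from their lists after their values were seen. Lists were matched by exact symbol. Fish of different stages are different fish, so no pairing was used. The labels do not say how fish were drawn, and p-values measure the spread between these libraries. Binomial intervals and floors cover counting error only.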

Additional observations from a re-analysis of the deposited data

Results flagged for a closer look

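Sets of 4 or 5 libraries (1 gene in 1 tissue, sex and stage) were tested for a library far from the rest. Of 48 sets, 8 had one. Where the other libraries of a set had no count, any count is flagged, so these 8 cannot be set against a chance rate. In head kidney these were ocean male 9 for star (2012 CPM against 0.0952 to 0.429 CPM in the other 3) and for hsd3b1 (1937 CPM against 0 to 0.572 CPM), and river male 5 for star (184 CPM against 0 to 1.24 CPM). For hsd20b2 they were river female 1 (3.60 CPM) and spawning male 9 (0.404 CPM), each with no count in the other 3 libraries. The tubule markers were at 931 CPM in river female 1 and at 158 CPM in spawning male 9, the highest of their groups. In spawning male 7 testis hsd20b2 was at 0.177 CPM, and in river female 1 muscle at 0.0732 CPM, with no count in the rest of either group. In spawning female 4 muscle star was at 6.05 CPM against 0.0811 to 0.113 CPM in the other 3.

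The stage change differed between ovary and testis by the test of the difference in 1 edgeR fit. From ocean to spawning the ovary change minus the testis change was 13.13 for hsd20b2, -2.37 for hsd3b1 and -3.59 for star. From river to spawning it was 13.00, -1.60 and -2.80 in the same order. The germ cell markers that fell in testis by spawning move with these values, and their part was not tested. Both hsd20b2 differences rest on 3 counts over the spawning testes, so their size depends on edgeR's prior count.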

How the results depend on the processing

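In the gonads the rises of star and hsd3b1 and both falls of hsd20b2 kept direction and call from ocean to spawning under every alternative run. Depth limits hsd20b2 in ovary, head kidney and muscle and star in muscle, where groups hold few counts.

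Fish number as a replicate block changed calls, but the numbers do not pair fish: correlations of same-numbered deviations ran from -0.606 to 0.747. With the block, river to spawning in ovary was 4.30 for hsd20b2 (edgeR adjusted p = 0.207) and 2.94 for star (0.0669), and ocean to river in testis was 1.60 for hsd3b1 (0.0748) and 2.04 for star (0.0577), none called. The ovary minus testis difference of hsd3b1 from river to spawning was -1.34 (0.199). Uncalled values turned sign with the block for hsd20b2 in ovary from ocean to river (-0.12) and in its ovary minus testis difference (-0.81). From river to spawning they also did for hsd3b1 in female (-0.19) and male head kidney (-0.64), and for hsd3b1 (-2.71) and star (-1.61) in female muscle. The female minus male head kidney difference turned sign for hsd3b1 from river to spawning (0.38) and for hsd20b2 from ocean to spawning (-4.03). The count of called enzymes in male head kidney became 0.

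DESeq2 called female head kidney star at 12.68 from ocean to spawning and 12.40 to the river, and hsd3b1 at 10.82 and 10.70. It called the female minus male differences of star (13.86 and 15.82) and hsd3b1 (12.44 and 14.55), star in female muscle (3.19) and 2 enzymes in female head kidney. With 1 library left out at a time, the edgeR differences of hsd3b1 ran from 1.57 to 17.84 and from 3.69 to 18.60, never called. In female muscle DESeq2 called 5972 genes higher and 5539 lower of 21695 from ocean to spawning. Library size only, which moved the median of all genes from ocean to spawning to 0.76 in female and 1.18 in male muscle, called star (4.09) and hsd3b1 (3.10) in female muscle and gave 0.63 for star in male muscle. With a pseudocount of 5 the star to hsd3b1 ratio from ocean to spawning in male head kidney was 0.16, and in ovary the star ratio from river to spawning (-1.07) and the hsd20b2 ratios from ocean (-2.88) and river (-2.13) passed. With 0.5 counts the ovarian values were -1.08, -1.03 and -0.55 in the same order. Ocean ovaries held 0 to 4 and river ovaries 0 to 5 counts of hsd20b2, so a pseudocount of 5 largely sets its ratio there. The causes were not tested.

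Leaving out 1 library at a time changed the sign or call of other values, given as ranges of the log2 change. In female head kidney star ran from 10.26 to 12.99 from ocean to spawning and from -2.06 to 3.25 from river to spawning, and hsd3b1 from 8.31 to 11.30 and from -2.36 to 3.25. There hsd20b2 ran from -1.16 to 0.10 from ocean to spawning. In male head kidney, from ocean to spawning, ocean to river and river to spawning, star ran from -6.81 to 9.67, -10.13 to 7.40 and -3.38 to 8.97, and hsd3b1 from -7.02 to 9.25, -7.96 to 6.99 and -3.16 to 6.36. The female minus male difference from river to spawning ran from -8.66 to 3.70 for star and from -6.21 to 3.32 for hsd3b1. In female muscle, from ocean and from river to spawning, star ran from -0.76 to 3.84 and -3.22 to 1.12, and hsd3b1 from 0.16 to 2.87 and -1.23 to 1.13. In male muscle star ran from -0.27 to 0.44 from ocean to river. In testis hsd20b2 ran from 0.40 to 0.98 from ocean to river. The ovary minus testis difference of hsd20b2 from ocean to river ran from -0.40 to 1.19, and that of hsd3b1 from river to spawning from -2.08 to -1.32.

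The star to hsd3b1 ratio in female head kidney ran from -0.55 to 1.81 from ocean to spawning, -0.26 to 2.102 from ocean to river and -0.96 to 0.21 from river to spawning, and in male head kidney from -0.60 to 0.30 from ocean to spawning. In testis it ran from 0.45 to 0.73 from ocean to spawning, with an adjusted p of 0.0714 without any 1 library (exact permutation, where fewer libraries raise the smallest p the design allows). The hsd20b2 to hsd3b1 ratio ran from -1.04 to 0.30 in ovary from ocean to river, and in testis from -16.27 to -15.72 from the ocean and -15.71 to -15.00 from the river to spawning, where for the same reason the adjusted p was 0.0571 to 0.0714 (exact permutation). Since 4 of 5 spawning testes had no hsd20b2 count, the pseudocount of 0.5 largely sets the size of these testis values.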

Other observations

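Star counts within single fish are given here across tissues. In river females 1, 7, 8 and 9 star was at 0.141, 53.9, 3295 and 292 CPM in head kidney and at 0.256, 0.613, 1.499 and 1.45 CPM in muscle. The muscle values rest on 7, 14, 22 and 29 counts. By CPM the order was the same in both tissues, but by muscle counts river female 9 stood above river female 8. Among fish with both tissues, the CPM order was also shared in spawning females and males. It differed in ocean females, ocean males and river males. Ocean female 5 had 0 star counts in head kidney and 5 in muscle, the most of the ocean females. River female 8 had 48210 star counts in head kidney, 1458 in ovary and 22 in muscle, and ocean male 9 had 31293, 177 and 3. Spawning female 2 had 6 star counts in head kidney and 21422 in ovary. Spawning male 7 had 79 in head kidney and 103198 in testis. River male 6, whose muscle library correlated best with spawning muscle, had no star count in head kidney. It had 30 star counts in muscle, the most of the river males, and the highest star level of the 5 river testes. All 3 tissues were sequenced in 20 fish, and no relation over fish was tested.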
